A study of Homo sapiens with 59 samples.

Results

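The 30 genes described here encode enzymes of cholesterol and fatty acid synthesis and the proteins that sense and carry sterols. They were chosen by symbol from textbook pathway membership, with earlier results of these data known. All 30 were found among the 19084 gene symbols of the table, SC5D under its older symbol SC5DL. All 30 passed the filter of at least 1 TPM, which gives a gene's share of a library's transcripts after correction for transcript length, in at least 3 libraries, as did 15305 genes in all. By role they fall into 7 genes of the mevalonate steps, 11 genes of the steps from squalene to cholesterol, 4 genes of sterol sensing and carrying, and 8 genes of fatty acid and lipid steps.

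RNA of neural stem cells was sequenced in 59 libraries. The cells came from WA09, also called H9, which is an established line of human embryonic stem cells. Every group had FGF8b (200 ng per mL), then 2 to 72 h of CHIR99021, a GSK3 inhibitor that activates WNT signalling, and last 4 days of retinoic acid before lysis. The 20 groups are the lengths of CHIR99021 exposure, every 2 h up to 24 h and every 6 h from 24 to 72 h. Each length has an A1, an A2 and a B1 library, but 48 h lacks B1. There is 1 cell line, cells without CHIR99021 were not analysed here, and longer exposure also meant longer culture. Since no label says that replicates were grown separately, the p-values measure the spread among these libraries alone, and that spread may be technical.

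TPM keep no depth, and sequencing depth is therefore unknown here. The number of genes at 1 TPM or more was 9348 to 13085 per library, and the 3 libraries under 10000 (4 h B1, 42 h B1 and 72 h A2) are named below where they decide a value. The labelled cell type was checked with 10 neural progenitor markers. None was at 0 throughout the 2 to 8 h or the 54 to 72 h libraries, where the markers summed to 921 to 1371 TPM and to 1628 to 2385 TPM per library. Nor was any of 10 epithelium markers at 0 throughout the 2 to 8 h libraries, where they summed to 1416 to 3861 TPM. Not being at 0 therefore cannot by itself settle the cell type.

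Animal cells make cholesterol from acetyl-CoA by way of mevalonate, isoprenoids, squalene and lanosterol, and fatty acids from the same acetyl-CoA by way of malonyl-CoA. Transcription of most of these enzymes is driven by the SREBP factors, which the genes SREBF1 and SREBF2 encode. When sterols are plentiful, INSIG proteins hold the SREBP precursors in the endoplasmic reticulum, and when sterols run short the precursors are released and cut to their active form. Neural progenitors are known to make much of their own cholesterol, which dividing cells need for new membrane.

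To show what the promoters of these genes hold, 4 stretches are printed, 150 bases each, from base 250 to base 101 before the start of transcription. STARD4 and INSIG1 were chosen because the values below turn on them, HMGCS1 as the mevalonate gene with the highest level, and SREBF2 as the gene of the main sterol regulator. They are from RefSeq's promoter table on GRCh38.p14, read 5′ to 3′ on the gene's own strand. STARD4 is at chr5:111512636-111512785 on the minus strand, INSIG1 at chr7:155297628-155297777 on the plus strand, HMGCS1 at chr5:43313513-43313662 on the minus strand and SREBF2 at chr22:41832855-41833004 on the plus strand. Capitals mark the motif CCAAT, which reads ATTGG where it lies on the other strand. They also mark the motif ACGTG, which reads CACGT on the other strand, and the motif TCACNCCAC.
STARD4: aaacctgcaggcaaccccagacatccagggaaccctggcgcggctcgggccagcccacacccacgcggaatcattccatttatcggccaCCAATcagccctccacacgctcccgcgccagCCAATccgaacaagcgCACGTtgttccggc
INSIG1: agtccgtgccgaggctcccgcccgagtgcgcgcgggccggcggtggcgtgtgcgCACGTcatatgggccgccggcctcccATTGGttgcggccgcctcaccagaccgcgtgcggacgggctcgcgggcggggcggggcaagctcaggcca
HMGCS1: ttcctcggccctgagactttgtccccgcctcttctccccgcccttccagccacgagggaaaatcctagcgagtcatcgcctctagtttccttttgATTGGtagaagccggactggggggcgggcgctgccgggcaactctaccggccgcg
SREBF2: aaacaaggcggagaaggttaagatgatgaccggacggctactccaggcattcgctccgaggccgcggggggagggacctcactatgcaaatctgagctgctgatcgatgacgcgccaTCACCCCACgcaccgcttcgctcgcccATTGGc

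The table held entries for 26 of the 30 genes, in 37 windows, and the full 250 bases before each start were searched on both strands. CCAAT, the motif bound by NF-Y, was in 23 of the 37 windows (62.2%) against 32% of all 35116 windows in the table. By gene, 19 of 26 held it, among them STARD4 and HMGCS1 with 2 copies each in the window, and INSIG1 and SREBF2 with 1. The CACGTG of INSIG1 and the other copy of HMGCS1 lie nearer the start than the printed stretch. TCACNCCAC, the classical sterol response element, was in the window of SREBF2 only, 2.7% of the members' windows against 0.883% of all. The shorter TCACNCC was in 24.3% of the members' windows and 13.1% of all. ACGTG, the core of the hypoxia response element, was in 18.9% of the members' windows and 18.5% of all. CACGTG, the E-box, contains ACGTG, and was in 8.11% and 6.34%. GGGCGG, a GC box, was in 86.5% of the members' windows and 42.6% of all. The shares over all windows cover 27305 gene symbols, which were not matched to the members in expression or base composition. Windows of 1 gene overlap and are not independent, and a match is a run of letters and not a measured site.

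**Figure D1:**
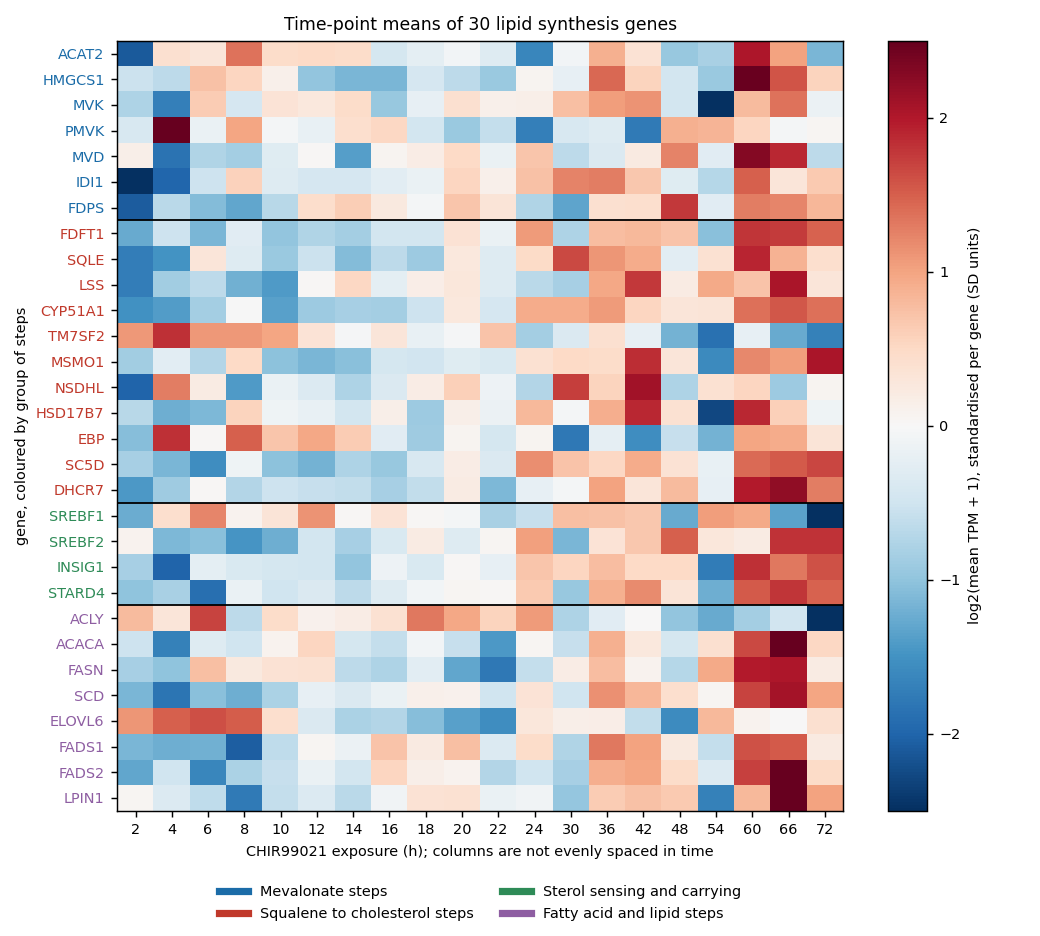
Time-point means of the 30 genes as log2(mean TPM + 1), standardised per gene over the 20 time points, with hours of CHIR99021 exposure across and genes down, grouped and coloured by role. Most rows are blue at 2 to 8 h and red at 60 and 66 h. TM7SF2 and ACLY run the other way, except ACLY at 8 h. ELOVL6 is high at 2 to 8 h, but at 60 and 66 h its means of 183 and 180 TPM are near its overall mean of 184 TPM. The 54 h column interrupts the red columns around it in rows such as INSIG1, HSD17B7 and STARD4.

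The 30 genes were of very different abundance. TPM are scaled to transcript length, so levels can be set beside each other. Mean TPM over the 59 libraries ran from 953 ± 429.8 for SCD, the desaturase that makes oleic acid, to 14.1 ± 6.41 for LPIN1, a phosphatidic acid phosphatase (SD over libraries of all time points). HMGCS1, which makes HMG-CoA, was next at 608 ± 164, then the squalene synthase FDFT1 at 430 ± 161, the citrate-cleaving enzyme ACLY at 406 ± 81.1 and the sterol carrier STARD4 at 283 ± 188. These SDs overlap between neighbours in the order. At the low end MVD, SREBF1, PMVK, MVK and LPIN1 averaged under 30 TPM, and MVD, SREBF1, PMVK and MVK were listed at 0 in 1 or 2 libraries each, all but 1 of these among the 3 libraries with few detected genes.

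The heat map of standardised means shows the genes' shared pattern and its exceptions. A test for a difference at any time point (limma, F-test over 20 time-point means) was passed by 26 of the 30 genes, where 35.1% of all genes tested passed. PMVK, MVD, NSDHL and EBP did not pass. A smooth course over exposure length (limma, natural spline with 4 df) was passed by 25, against 36.8% of all genes. HSD17B7 and MVK passed the first test and not the second, with adjusted p of 0.2 and 0.22 for the course, and both had low libraries at 54 h. EBP passed the second and not the first, with adjusted p of 0.015 and 0.054.

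The longest exposures, 54 to 72 h, were compared with the shortest, 2 to 8 h, with 12 libraries on each side. Of the 30 genes 19 were higher late and 3 were lower by limma's moderated test with Benjamini-Hochberg adjustment over all genes at 0.05. Among all genes tested 14.3% were higher and 15.8% lower. The median difference of the 30 genes was 0.68 on the log2(TPM + 1) scale, on which all differences below are given, and that of all genes was −0.04. This scale understates changes of low genes. The late window includes 54 h, at which many of these genes were low. With 60 to 72 h as the late window 21 genes were higher and 4 lower, against 14.7% and 19.6% of all genes, with a median of 0.92.

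**Figure D2:**
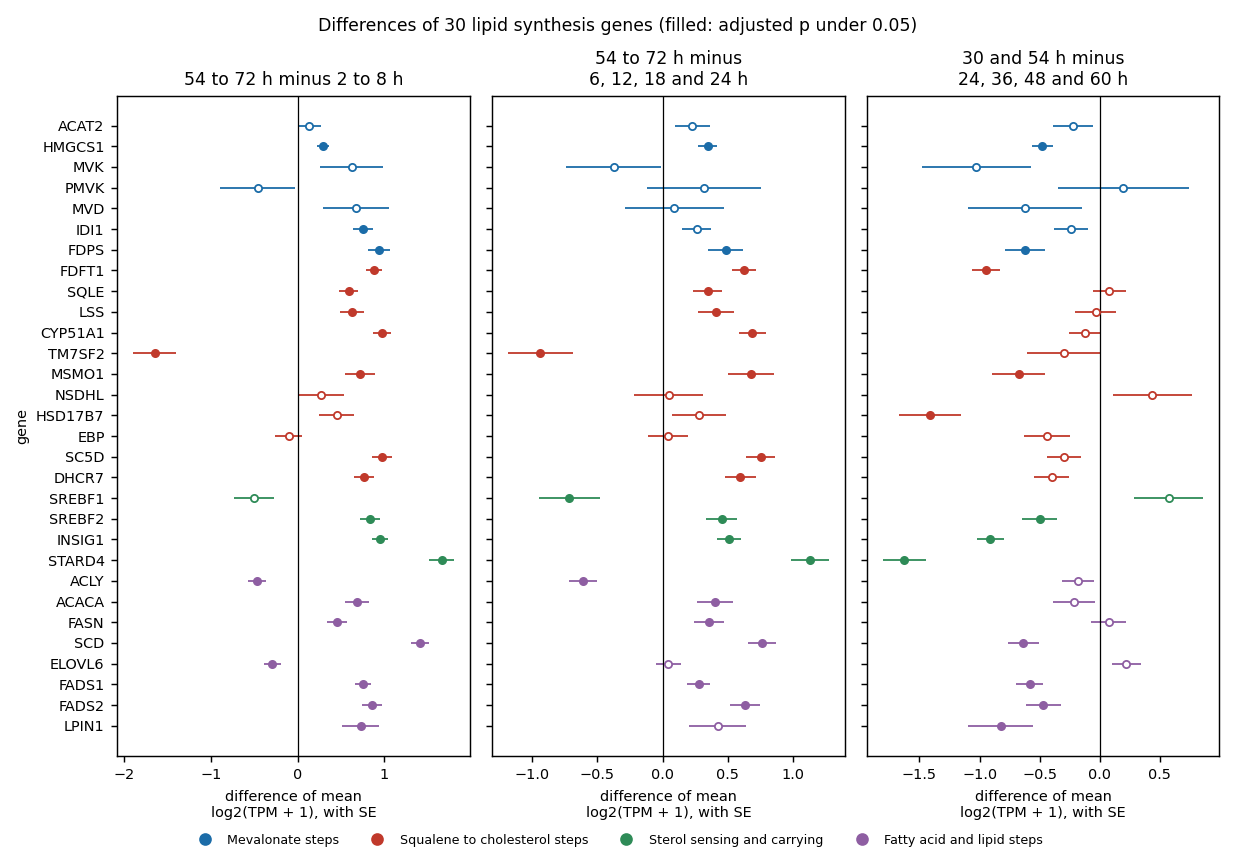
Differences of mean log2(TPM + 1) with their SE for each of the 30 genes in 3 comparisons, coloured by role and filled where the adjusted p is under 0.05. In the left panel 19 filled points lie right of 0 and 3 left of it, and in the right panel all 12 filled points lie left of 0.

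Of the 7 mevalonate genes 3 rose late and none fell, also at an unadjusted p under 0.05. FDPS, which makes farnesyl pyrophosphate, was at 97.8, 161 and 287 TPM (lowest, median and highest of 12 libraries) early and at 219.9, 319 and 492 TPM late. The early and late libraries overlapped, and the difference was 0.94 (SE 0.13, limma adjusted p = 1.7e-07). The isomerase IDI1 went from a mean of 113 ± 57.3 to 178 ± 53.5 TPM (SD, n = 12 each), a difference of 0.75 (SE 0.11, limma adjusted p = 7.5e-07). HMGCS1 differed by 0.29 (SE 0.07, limma adjusted p = 0.0013), or by 0.24 without the libraries labelled B1 (adjusted p = 0.072). The thiolase ACAT2 differed by 0.13 (SE 0.13), the mevalonate kinase MVK by 0.62 (SE 0.36), the decarboxylase MVD by 0.67 (SE 0.38) and the phosphomevalonate kinase PMVK by −0.46 (SE 0.44), none past the threshold. Without 54 h in the late window MVK passed, with 1.31 (SE 0.39, limma adjusted p = 0.0074). For MVD, labels A1, A2 and B1 gave 0.61, −0.59 and 1.98, with MVD listed at 0 in 4 h B1 and 72 h A2. Without the 3 libraries with few detected genes MVD passed, with 0.71 (limma adjusted p = 0.0012). FDPS has near-identical copies elsewhere in the genome and ACAT2 overlaps a gene on the other strand. The sources used here do not say whether reads were counted by strand, so these levels are uncertain.

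Of the 11 genes from squalene to cholesterol 7 rose and 1 fell. CYP51A1, the lanosterol demethylase, was at 82.2, 135 and 214 TPM early and at 186, 264 and 357 TPM late. The highest early libraries overlapped the lowest late ones, and the difference was 0.98 (SE 0.1, limma adjusted p = 1.4e-10). SC5D, the lathosterol oxidase, was at 24, 34.5 and 66.3 TPM early and at 32.6, 75.4 and 98.2 TPM late, a difference of 0.97 (SE 0.11, limma adjusted p = 2.6e-09). FDFT1, at the branch into sterols, was at 231, 268 and 522 TPM early and at 271, 701 and 820 TPM late. Its late libraries split, with the 3 of 54 h at 271 to 296 TPM and the other 9 at 495 TPM or more. The difference was 0.88 with 54 h in the window and 1.2 without it. DHCR7, the last reductase of one branch, rose by 0.76, MSMO1, a demethylation enzyme, by 0.72, LSS, which makes lanosterol, by 0.62 and SQLE, the squalene epoxidase, by 0.59. MSMO1 differed by 0.97, 0.99 and 0.19 in A1, A2 and B1, and no longer passed without A1 (0.59, limma adjusted p = 0.09) or A2 (0.58, limma adjusted p = 0.072). Its early high of 377 TPM was in 4 h B1, a library with few detected genes. HSD17B7, a sterol ketone reductase, had a difference of 0.45 (limma adjusted p = 0.099), and 0.97 without 54 h (limma adjusted p = 0.00057). HSD17B7 also passed without the 3 libraries with few detected genes (0.57, limma adjusted p = 0.0078). Its reads may be shared with a pseudogene copy.

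The exception was TM7SF2, a sterol C14 reductase whose reaction the lamin B receptor can also carry out. It was at 34.1, 65.1 and 161 TPM early and at 4.15, 20.1 and 56.3 TPM late. Early and late libraries overlapped, and the difference was −1.65 (SE 0.25, limma adjusted p = 6.5e-07). Its early high of 161 TPM was in 4 h B1, a library with few detected genes. EBP, the sterol isomerase, and NSDHL, a decarboxylase of the demethylation complex, had differences of −0.1 and 0.27 that did not pass.

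Of the 4 genes of sterol sensing and carrying 3 rose, and SREBF1 did not pass. STARD4, which moves cholesterol between membranes, showed the highest difference of the 30. It was at 63, 123 and 282 TPM early and at 108, 553 and 781 TPM late, a difference of 1.66 (SE 0.14, limma adjusted p = 6.9e-13). At 66 h it reached 762, 673 and 641 TPM in A1, A2 and B1, all above every library of 2 to 24 h. INSIG1, which retains SREBP precursors, was at 45, 89.2 and 129 TPM early and at 47.8, 206 and 274 TPM late, a difference of 0.95 (SE 0.09, limma adjusted p = 5.8e-12). SREBF2, which encodes the factor of the cholesterol branch, rose by 0.83 (SE 0.12, limma adjusted p = 2.1e-07), from a mean of 76.8 ± 21.3 to 138 ± 42.4 TPM (SD, n = 12 each). SREBF1, which encodes the factor of the fatty acid branch, had a difference of −0.51 (SE 0.23, limma adjusted p = 0.093). SREBF1 fell by 0.87 when 54 h was left out of the late window (limma adjusted p = 0.0053). At 54 h it was at 31.7, 34.3 and 33.3 TPM in A1, A2 and B1. The 60 h libraries, which stay in the shorter window, were at 20 to 42.7 TPM. Their mean was 31.8 TPM, against 23.8 TPM over 2 to 8 h. Lower values came at 66 h, with SREBF1 at 10, 12.7 and 12.3 TPM in A1, A2 and B1. At 72 h it was at 8.48, 0 and 12 TPM, where the 0 is the A2 library with few detected genes.

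The plot of 6 genes in every library shows these levels. All 8 genes of the fatty acid and lipid steps passed, 6 higher and 2 lower. SCD was at 370, 533 and 646 TPM early and at 666, 1621 and 2148 TPM late. Its late low of 666 TPM was in 72 h A2, a library with few detected genes. SCD was the only member whose early and late libraries did not overlap, and the difference was 1.41 (SE 0.1, limma adjusted p = 3.3e-15). FADS2 and FADS1, the desaturases of polyunsaturated fatty acids, rose by 0.86 and 0.75, LPIN1 by 0.72, the acetyl-CoA carboxylase ACACA by 0.68 and the fatty acid synthase FASN by 0.45. LPIN1 no longer passed without label B1 (0.39, limma adjusted p = 0.23) or A2 (0.77, limma adjusted p = 0.055), nor did FASN without B1 (0.32, limma adjusted p = 0.13). ACLY, which supplies cytosolic acetyl-CoA to both pathways, was at 305, 461 and 551 TPM early and at 124, 332 and 402 TPM late. The groups overlapped, and the difference was −0.47 (SE 0.11, limma adjusted p = 0.00055). Its late low of 124 TPM was in 72 h A2. ELOVL6, which elongates palmitate, fell by 0.3 (SE 0.1, limma adjusted p = 0.017), or by 0.23 without the libraries labelled A1 (limma adjusted p = 0.22).

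**Figure D3:**
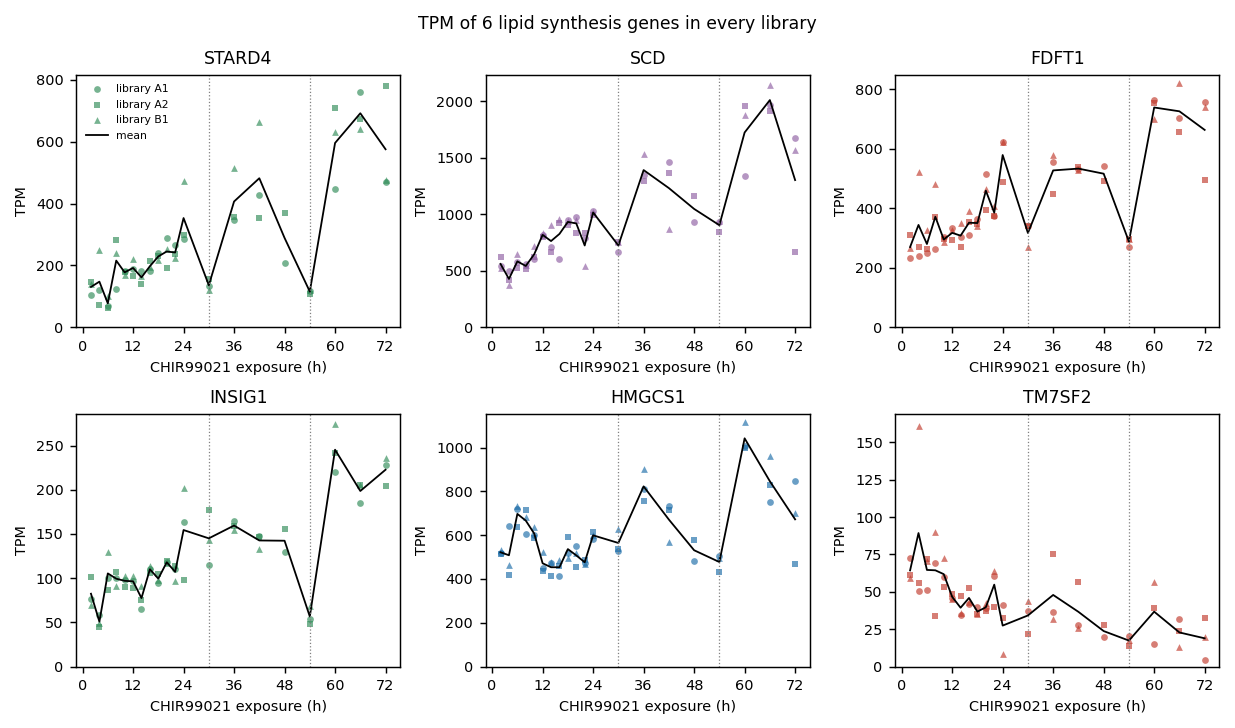
TPM of STARD4, SCD, FDFT1, INSIG1, HMGCS1 and TM7SF2 in every library against hours of CHIR99021 exposure, with the mean of each time point as a line, replicate labels as symbols and dotted lines at 30 and 54 h. STARD4 is at 108 to 156 TPM in the 6 libraries of 30 and 54 h and at 208 TPM or more in every library of 24, 36, 48 and 60 h, while TM7SF2 has time-point means of 64.3 to 89.3 TPM at 2 to 8 h and of 17.4 to 36.7 TPM at 54 to 72 h.

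Other lists moved beside these genes between the same windows. The hypoxia and glycolysis list had 8 of 14 genes higher and 2 lower, and the cell cycle list 14 of 15 higher. Of neural progenitor markers 8 of 10 were higher and 1 lower. Of neuron markers 8 of 10 were higher, with sums of 206 to 369 TPM early and 301 to 579 TPM late. All 10 epithelium markers were lower, with sums of 1416 to 3861 TPM early and 484 to 796 TPM late, and CLDN7, ESRP1 and GRHL2 at 0 late. Of endoderm and liver-type markers, a cell type rich in lipid synthesis, 9 of the 11 tested were lower, from sums of 65 to 268 TPM to 0 to 32.1 TPM, with ALB, AFP, TTR, APOA2 and GATA4 at 0 late and SOX17 at 0 in every library. Of mesoderm and fibroblast markers 4 of the 8 tested were higher and 1 lower, with sums of 664 to 1054 TPM early and 739 to 1297 TPM late, TWIST1 at 0 early and DCN at 0 late. The cell cycle sums were 1282 to 1930 TPM early and 2654 to 4025 TPM late, and the hypoxia sums 1642 to 6046 and 955 to 4199 TPM. The part of these shifts in the results above was not tested. In bulk samples fewer cells of a type and less RNA per cell cannot be told apart.

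A second comparison set 54, 60, 66 and 72 h against 6, 12, 18 and 24 h, whole days earlier, so that each late time point lies whole days after an early one. It shares the late libraries with the first. Here 17 of the 30 genes were higher and 3 lower, against 6.94% and 9.75% of all genes, with a median of 0.35 for the 30 and −0.08 for all. STARD4 differed by 1.13 (SE 0.14, limma adjusted p = 4.9e-08) and SCD by 0.76 (SE 0.1, limma adjusted p = 1.9e-07). SC5D, CYP51A1, MSMO1, FADS2 and FDFT1 rose by 0.62 to 0.75. TM7SF2 fell by 0.93 (limma adjusted p = 0.0051), SREBF1 by 0.71 (limma adjusted p = 0.026) and ACLY by 0.61 (limma adjusted p = 2.9e-05). Without the libraries labelled A1, TM7SF2 and SREBF1 no longer passed (adjusted p of 0.22 and 0.2). In that setting 11 genes were higher and 1 was lower. MSMO1 no longer passed without A1 (0.67, limma adjusted p = 0.097) or A2 (0.61, limma adjusted p = 0.1). FDPS, SQLE, LSS, SREBF2, ACACA, FASN and FADS1 also lost their call without at least 1 label. HMGCS1, FDFT1, CYP51A1, SC5D, DHCR7, INSIG1, STARD4, SCD and FADS2 passed without each label in turn. MVD did not pass here, but did without the 3 libraries with few detected genes (0.51, limma adjusted p = 0.027).

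At 54 h against 6 h alone, also whole days apart, the picture differed. None of the 30 genes was higher by limma, 6 were higher at an unadjusted p under 0.05, and 5 were lower, against 3.47% and 3.48% of all genes. The 5 were HMGCS1 (−0.55), MVK (−2.67), TM7SF2 (−1.84), INSIG1 (−0.88) and ACLY (−0.73). STARD4 was at 67.8, 63 and 101 TPM at 6 h in A1, A2 and B1, and at 116, 108 and 122 TPM at 54 h. These do not overlap, but the difference of 0.6 did not pass (limma adjusted p = 0.27). The comparison rests on 3 libraries a side.

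The time points of 30 and 54 h were compared with their neighbours, 24, 36, 48 and 60 h, since they stood apart in earlier results of these data. Because these hours were picked from the same libraries, the p-values here and for each hour alone may be too small. Of the 30 genes 12 were lower at 30 and 54 h, where 4.53% of all genes were, and none was higher, also at an unadjusted p under 0.05, where 9.77% of all genes were higher. The median difference was −0.42 for the 30 genes and 0.05 for all. By role 2 of 7 mevalonate genes, 3 of 11 squalene to cholesterol genes, 3 of 4 sensing and carrying genes and 4 of 8 fatty acid and lipid genes were lower. Without the libraries labelled B1 the count was 7. STARD4, FDFT1, FADS1, HSD17B7, INSIG1, SCD and HMGCS1 passed without each label in turn, while FDPS, MSMO1, SREBF2, FADS2 and LPIN1 lost their call without at least 1. Without the 3 libraries with few detected genes MVD (−0.62), EBP (−0.44) and DHCR7 (−0.40) were also lower, which makes 15, and SREBF1 was higher (0.57, limma adjusted p = 0.011).

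STARD4 had the lowest difference of the 30 genes over both hours, although HSD17B7 and MVK were lower than STARD4 relative to their neighbours at 54 h alone (−2.28 and −2.20 against −1.80). It was at 287, 299 and 474 TPM at 24 h in A1, A2 and B1, at 132, 156 and 119 TPM at 30 h, and at 347, 357 and 516 TPM at 36 h. At 48 h it was at 208 and 370 TPM, at 54 h at 116, 108 and 122 TPM, and at 60 h at 448, 709 and 631 TPM. All 6 libraries of 30 and 54 h lay below all 11 neighbours, and the difference was −1.63 (SE 0.18, limma adjusted p = 3.7e-09). FDFT1 was also free of overlap, with 269, 296 and 341 TPM (lowest, median and highest) at 30 and 54 h and 449, 579 and 763 TPM at the neighbours (difference −0.95, SE 0.12, limma adjusted p = 5.6e-08). FADS1 was the other member without overlap, with 132, 159 and 169 TPM against 191, 231 and 295 TPM (difference −0.58, SE 0.11, limma adjusted p = 1.5e-04).

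Other members were low at 54 h more than at 30 h. INSIG1 was at 114, 177 and 143 TPM at 30 h in A1, A2 and B1, within the range of 24 h, which was 97.8 to 201 TPM. At 54 h it was at 53.5, 47.8 and 68.5 TPM, below every library of 48 h (129 and 155 TPM) and of 60 h (220.1 to 274 TPM). Its offset was −0.1 (SE 0.15) at 30 h and −1.72 (SE 0.16, limma adjusted p = 9.2e-11) at 54 h, and the difference of the offsets was 1.61 (SE 0.22, limma adjusted p = 8.4e-05). INSIG1 was the only member whose 2 offsets differed in that direction, against 0.0131% of all genes, and none differed in the other, also at an unadjusted p under 0.05, against 0.0261% of all genes. Without the libraries labelled A1, or without those labelled A2, this count for INSIG1 was 0. HSD17B7 was at 31.3, 13.8 and 14.8 TPM at 54 h against 51.5 TPM or more in the libraries of 48 and 60 h, an offset of −2.28 (limma adjusted p = 3.0e-05). MSMO1 was at 114, 93.5 and 98.5 TPM against 164 TPM or more, an offset of −1.35 (limma adjusted p = 0.0034). For both, the difference from the offset at 30 h did not pass (limma adjusted p = 0.45 and 0.5).

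**Figure D4:**
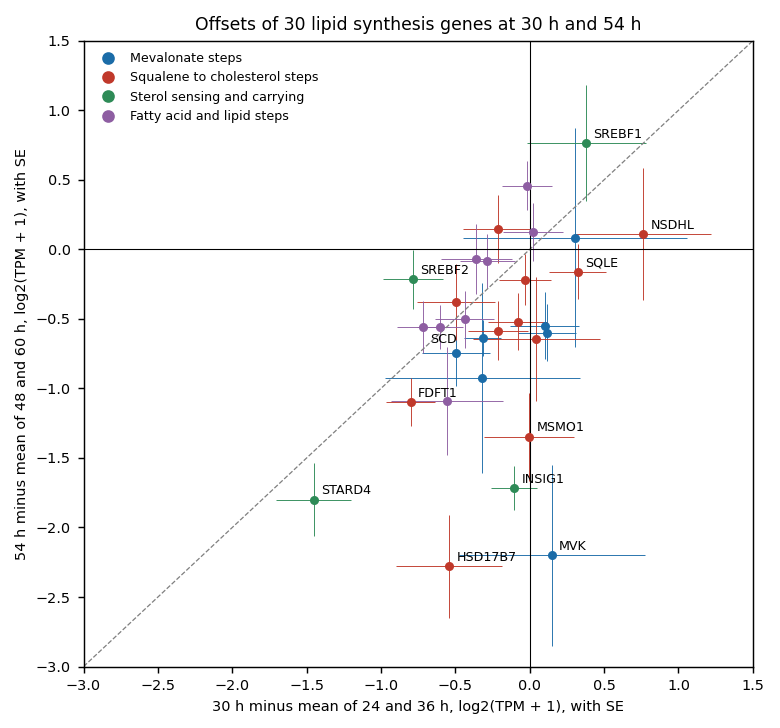
Offsets of the 30 genes from their neighbours on the log2(TPM + 1) scale with SE, at 30 h across and at 54 h upward, coloured by role, with a dashed line where they are equal. STARD4 and FDFT1 are low at both, INSIG1, MSMO1, HSD17B7 and MVK lie well below the dashed line, and SREBF2 is lower at 30 h.

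Taken separately, 5 of the 30 genes were lower at 30 h than at 24 and 36 h, against 1.95% of all genes, and 9 were lower at 54 h than at 48 and 60 h, against 1.81%. FADS1, FDFT1 and STARD4 are in both sets. SREBF2 and SCD passed at 30 h only, SREBF2 with 74, 66.3 and 70 TPM at 30 h in A1, A2 and B1 against 106 to 145 TPM at 24 and 36 h. At 54 h the set also holds INSIG1, HSD17B7, MSMO1, HMGCS1, FDPS and MVK. Passing at 1 hour and not at the other does not show that the offsets differ, and apart from INSIG1 no difference passed. SQLE was at 367 TPM on average at 30 h, above its means of 272 at 24 h and 319 at 36 h, a difference of 0.32 that did not pass (SE 0.19, limma adjusted p = 0.42). The plot of offsets at both hours shows these genes apart from the rest.

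The hypoxia and glycolysis list was low at the same hours. It had 12 of 14 genes lower at 30 and 54 h than at the neighbours, and its summed level was 931 to 1116 TPM against 1937 to 4199 TPM. BNIP3, a mitophagy receptor induced by low oxygen, differed by −2.58 and the glucose regulator PFKFB4 by −3.57. INSIG2, the second INSIG gene and no member, was also low, at 25.7 ± 9.52 TPM (SD, n = 6) against 109 ± 50.1 TPM (SD, n = 11), a difference of −1.95 (SE 0.18, limma adjusted p = 3.2e-11). Over the 20 time-point means, r of single members with the mean of the hypoxia list ranged from −0.59 for ELOVL6 to 0.79 for LPIN1, with 0.68 for STARD4, −0.04 for SQLE and −0.08 for FASN. With the mean of the cell cycle list r ranged from −0.74 for TM7SF2 to 0.84 for SCD, with 0.71 for STARD4, 0.53 for SQLE and 0.21 for FASN. These are descriptions, since both values of each r come from the same libraries and follow trends over exposure. Of cell cycle genes 4 of 15 were lower. Of markers, 1 progenitor gene was higher and 2 were lower, 2 neuron and 2 epithelium genes were lower, and no endoderm or mesoderm gene passed. Progenitor sums were 1381 to 1957 TPM at 30 and 54 h and 1546 to 2530 TPM at the neighbours. The part of these lists in the dips was not tested. The sources used here give no clock times of medium changes or lysis.

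The shortest exposures were compared with each other by setting 4, 6 and 8 h against 2 h. All these libraries were lysed after the 4 days of retinoic acid, so none samples the first hours of CHIR99021 itself. Of the 30 genes 2 were higher, against 1.2% of all genes. None was lower by limma, against 4.19%, and 1 was lower at an unadjusted p under 0.05. ACAT2 was at 56.1, 90.6 and 84.6 TPM at 2 h in A1, A2 and B1 and at 109, 160 and 243 TPM (lowest, median and highest) in the 9 libraries of 4 to 8 h, with no overlap (difference 1.16, SE 0.22, limma adjusted p = 4.2e-04). IDI1 was at 73.5, 51.8 and 72.6 TPM at 2 h and at 66.9, 117 and 226 TPM at 4 to 8 h, with overlap (difference 0.84, SE 0.19, limma adjusted p = 0.0029). SREBF2 was at 100.5 to 102 TPM at 2 h and 43.1 to 97.7 TPM at 4 to 8 h. For SREBF1 the ranges were 11.6 to 13.4 TPM at 2 h and 16.2 to 37.8 TPM at 4 to 8 h. Neither group overlapped, and the differences of −0.6 and 1.06 had limma adjusted p of 0.057 and 0.095. Without the 3 libraries with few detected genes SQLE, EBP and SREBF1 were also higher and SREBF2 was lower, which makes 5 and 1. Without 72 h A2 alone, which enters through the shared spread, 4 were higher and 1 was lower. Without 2 h A2 alone 1 was higher, and without 4 h A1, 8 h A1, 22 h B1, 42 h B1 or 60 h A1 alone 1 was lower. Each of the 2 calls was also lost without 1 label. Without label A1 the ACAT2 difference was 1.03 (limma adjusted p = 0.062), and without label A2 the IDI1 difference was 0.75 (limma adjusted p = 0.082). Hypoxia and glycolysis genes were lower in the same comparison, 8 of 14, and their part was not tested.

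The genes varied together only in part. Of the 435 pairs of members 158 had r above 0.5 over the 20 time-point means, 126 were below 0, and the median was 0.35. Likeness to the mean of the other 29 was highest for DHCR7 (r = 0.91), SCD (0.9), FDFT1 (0.85) and FADS2 (0.85). It was negative for TM7SF2 (−0.51), ACLY (−0.37), PMVK (−0.35), ELOVL6 (−0.27) and SREBF1 (−0.11), and near 0 for EBP. Over all members the mean standardised level was −0.81 SD at 2 h, −0.44 at 54 h, 1.22 at 60 h and 0.19 at 72 h.

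**Figure D5:**
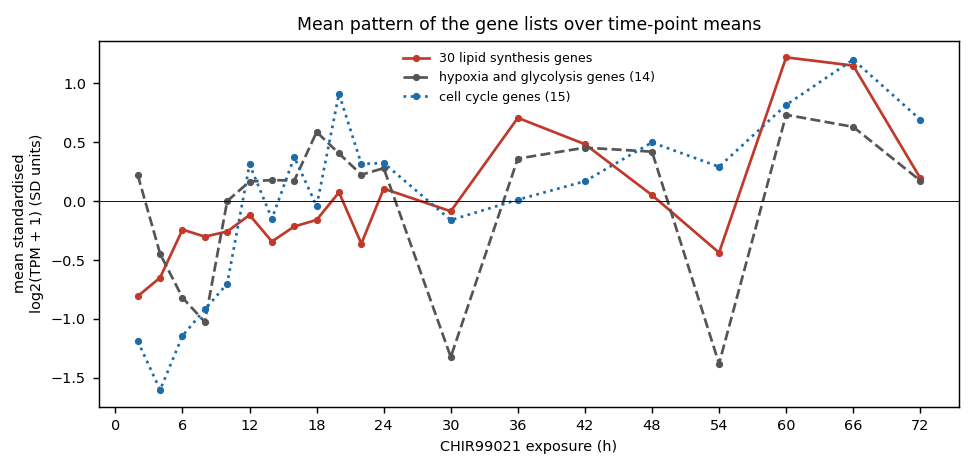
Mean standardised log2(TPM + 1) of the 30 lipid synthesis genes, of 14 hypoxia and glycolysis genes and of 15 cell cycle genes at each of 20 time points, in SD units, against hours of CHIR99021 exposure. The 30 genes go from −0.81 at 2 h to 1.22 at 60 h with a fall to −0.44 at 54 h, and the hypoxia list falls to −1.32 at 30 h and −1.38 at 54 h.

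The plot of list means puts the dips of both lists beside the course of the cell cycle list. The cell cycle mean was 0.32, −0.16 and 0.01 SD at 24, 30 and 36 h. It was 0.5, 0.29 and 0.82 SD at 48, 54 and 60 h, so it too was lower at 30 and 54 h. Outside the 30, genes with a mean of at least 5 TPM were ranked by r with the mean pattern of the members over 20 time points. Among the 10 nearest were the neurotrophin receptor NTRK2 (0.88), the RNA-binding protein genes HNRNPA3 (0.86) and HNRNPA2B1 (0.84), the membrane protein gene GPM6B (0.81) and BHLHE40 (0.81), a transcription factor. For STARD4 alone the nearest were FDFT1 (0.94), STC1 (0.92), INSIG2 (0.91), TRIM59 (0.91) and ACBD5 (0.9), a list made after its values were seen.

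Genes around the synthesis pathway were read from lists of their own. Their late counts stand against 14.3% higher and 15.8% lower among all genes tested, and nothing is read from counts in lists this short about the lists themselves. In the list of SREBP processing, INSIG2 rose late by 1.35 (limma adjusted p = 2.9e-10) and the other 3 genes did not pass. Of 7 genes of other isoprenoid branches, which draw on the same precursors, 2 were lower late and none higher, also at an unadjusted p under 0.05. They were FNTA, a prenyltransferase subunit (−0.41), and PDSS1 of ubiquinone synthesis (−1.19). PDSS1 was low, with medians of 9.7 TPM early and 3.2 TPM late, and labels A1, A2 and B1 gave −1.49, −0.05 and −2.03. Of 15 genes of fatty acid supply and elongation 4 were higher and 2 lower. ACSL4, which activates polyunsaturated fatty acids, went from 95 ± 15.1 to 179 ± 49.1 TPM (SD, n = 12 each), and ACSS2, which makes acetyl-CoA from acetate, differed by 1.08. ELOVL2 and ACSL3 were the other higher genes, and the citrate carrier SLC25A1 (−0.41) and ACACB (−0.72), the mitochondrial counterpart of ACACA, were lower.

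Of 11 genes of sterol uptake, storage and export 3 rose late and 2 fell. LIPA, the lysosomal lipase that frees cholesterol from its esters, went from 56 ± 12 to 135 ± 41.1 TPM (difference 1.22, SE 0.12, limma adjusted p = 1.0e-11). SCARB1, a lipoprotein receptor, rose by 1.67 and VLDLR, another, by 0.73, although VLDLR fell by 0.35 in the comparison with 6 to 24 h. ABCA1, which exports cholesterol, went from 35.1 ± 14.3 to 13.6 ± 4.68 TPM (difference −1.28, SE 0.16, limma adjusted p = 5.7e-09). MYLIP, which marks lipoprotein receptors for degradation, went from 56.3 ± 21.3 to 15.6 ± 4.49 TPM (difference −1.75, SE 0.27, limma adjusted p = 9.1e-07). ABCA1 and MYLIP are known targets of the sterol-activated LXR receptors, whose part in these differences was not tested. Of 13 genes of fatty acid oxidation 3 fell late and none rose, also at an unadjusted p under 0.05: the dehydrogenase ACADM (−0.46), the carnitine carrier SLC25A20 (−0.99) and the electron carrier ETFA (−0.35). For SLC25A20, labels A1, A2 and B1 gave −0.32, −1.94 and −0.71, and its lowest late value was 0.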

How the data were processed

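Gene expression was measured by RNA-seq in 59 libraries at 20 lengths of CHIR99021 exposure. The deposited table holds TPM per gene symbol, which the authors made with CASAVA 1.8.2, Bowtie 0.12.8 and RSEM 1.2.3 on hg19, per the submitters' processing notes. The roles of these tools, the gene annotation and whether counting used strand are not given in the sources used here. TPM keep no depth, so no counting interval can be given, and a 48 h library was removed by the submitters, per the labels.

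TPM were taken as log2(TPM + 1), genes with at least 1 TPM in at least 3 libraries were kept (15305 of 19084), and limma 3.58.1 (R 4.3.3) was fitted to 20 time-point means with a variance trend and 39 residual df. Contrasts between windows weight time points equally, and a natural spline with 4 df gave the course. P-values were adjusted by Benjamini-Hochberg over all genes tested, with a threshold of 0.05. The fit was tested on simulated data. SDs are over libraries.

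The 30 members and all lists were chosen with earlier results of these data known. Any member may be named. From each other list, at most 6 genes past the threshold with a time-point mean of at least 5 TPM were named, the 3 highest and 3 lowest, plus the 10 genes nearest in pattern, some of which are not reported here. Alternatives covered the pseudocount, the filter, scaling, the replicate label as a block, left-out replicates and libraries, and other windows. Plots and promoter searches used Python 3.11.15, with matplotlib 3.10.9 for the plots.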

Additional observations from a re-analysis of the deposited data

Results flagged for a closer look

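INSIG1 was singled out because its offsets at 2 times differed by a test of the difference itself. Its offset from 48 and 60 h at 54 h was −1.72, its offset from 24 and 36 h at 30 h was −0.10, and they differed by 1.61 (SE 0.22, limma adjusted p = 8.4e-05, n = 3 libraries each at 30 and 54 h). All 3 libraries of 54 h were below all 5 of 48 and 60 h. Leaving out label A1, or label A2, ended the call.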

How the results depend on the processing

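The alternatives that use 54 h minus 6 h, 60 to 72 h minus 2 to 8 h or 54 to 72 h minus 4 to 8 h, and those that leave out single libraries, were chosen after seeing the data. Late against early, the 19 higher and 3 lower members ranged over 17 to 22 and 2 to 4 in all alternatives run. For 54 h minus 6 h in place of 6 to 24 h, 0 members were higher and 5 lower, and the median was −0.00033. HMGCS1 (−0.55) and INSIG1 (−0.88) reversed and passed the threshold. MSMO1 (−0.51) and DHCR7 (−0.072) changed sign but did not pass (limma adjusted p = 0.54 and 0.97). For 30 h alone 5 members were lower. Leaving out the label A1, A2 or B1 in turn, members differing at any time point were 16 to 21, those of 54 to 72 h against 6 to 24 h were 11 to 12 higher and 1 to 3 lower, those lower at 30 and 54 h were 7 to 9, those higher at 4 to 8 h were 1 to 2, and those whose offsets differed were 0 to 1. At 4 to 8 h 1 member was lower with a pseudocount of 5, quantile normalization, median-ratio scaling or without 42 h B1, a setting in which 27 members differed at any time point and 13 were lower at 30 and 54 h. Without the 3 libraries with few genes, 5 were higher and 1 lower at 4 to 8 h, 1 was higher at 30 and 54 h and 2 had different offsets. Without 72 h A2 alone, 4 were higher and 1 lower at 4 to 8 h, and 1 was higher at 30 and 54 h. Fewer libraries were fitted in these settings, and for the others the cause was not tested. With the replicate block the counts were the same (19 and 3 late, 17 and 3, 12 lower at 30 and 54 h). No label says that the replicate names pair libraries, and 8 of 551 pairs with the same name had deviations correlated above 0.1, so they were not treated as paired. That 32 of 59 libraries correlated best with their own name is a hint from the data, not the design.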
